A study of Homo sapiens with 6 samples.

Results

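The mitochondrially encoded complex I genes are the 7 ND genes (ND1, ND2, ND3, ND4, ND4L, ND5 and ND6), chosen by name from the 22481 genes of the deposited table, and all 7 passed the filter on low counts. The RNA came from 143B, an established osteosarcoma cell line of human origin that, in forms lacking thymidine kinase, is a common nuclear host for cytoplasmic hybrids of mitochondrial DNA. The celastrol group is 3 wells given celastrol, a triterpene of the thunder god vine, for 24 h after 24 h of growth, and the control group is 3 wells kept without it over the same times. All 6 wells stood on a single plate, so the p-values measure the spread between wells, which may be technical. The dose and any vehicle are not given in the sources used here. Libraries were made from poly(A)-selected RNA.

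Complex I, or NADH:ubiquinone oxidoreductase, passes electrons from NADH to ubiquinone and pumps protons across the inner mitochondrial membrane. The ND proteins form the core of its membrane arm, and the nucleus encodes the core of the other arm, which reaches into the matrix. Mitochondrial DNA is copied into long RNAs that are cut at the tRNAs, and every ND mRNA except ND6 is cut from the heavy-strand transcript. ND6 is read from the other promoter, and its human mRNA is known to carry no poly(A) tail. ND4L and ND4 stay together on a single mRNA.

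The 7 genes lie on mitochondrial DNA (RefSeq, GRCh38.p14) without introns. ND1 (NCBI gene 4535) spans bases 3307 to 4262, ND2 (gene 4536) 4470 to 5511, and ND3 (gene 4537) 10059 to 10404. ND4L (gene 4539) spans 10470 to 10766, ND4 (gene 4538) 10760 to 12137, and ND5 (gene 4540) 12337 to 14148. ND6 (gene 4541) spans 14149 to 14673 on the opposite strand, with 0 bases between it and ND5. The last 30 bases of each reading frame are shown because the members differ in how much of the stop codon the DNA encodes. They come from the GENCODE 29 transcripts (GRCh38), 5′ to 3′, with the bases of the stop codon that the DNA encodes in capitals.
ND1 (4233 to 4262): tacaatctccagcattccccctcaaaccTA
ND2 (5482 to 5511): ctatctccccttttatactaataatcttaT
ND3 (10375 to 10404): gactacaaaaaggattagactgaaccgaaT
ND4 (12108 to 12137): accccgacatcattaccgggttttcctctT
ND4L (10737 to 10766): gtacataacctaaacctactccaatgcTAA
ND5 (14119 to 14148): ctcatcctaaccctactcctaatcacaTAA
ND6 (14149 to 14178, minus strand): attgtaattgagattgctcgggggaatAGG
ND1, ND2, ND3 and ND4 end in an incomplete stop codon, which polyadenylation is known to complete in human mitochondria. ND4L and ND5 encode a full TAA, and ND6 ends in AGG.

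ND6 also stands apart in its bases. Its sense strand held 35.6% G and 7.05% C, against 9.50% to 12.1% G and 29.5% to 36.0% C in the other 6. The first 90 bases of ND6 and ND2 show this, with each G in capitals, 27 in ND6 and 12 in ND2.
ND6 (14584 to 14673, minus strand): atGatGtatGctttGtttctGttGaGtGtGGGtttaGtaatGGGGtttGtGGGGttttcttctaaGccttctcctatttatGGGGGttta
ND2 (4470 to 4559): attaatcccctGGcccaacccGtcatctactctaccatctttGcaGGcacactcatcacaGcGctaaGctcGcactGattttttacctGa
The end of ND4L and the start of ND4 share 7 bases, in capitals in the next line, so that a read over them belongs to both genes.
ND4L-ND4 junction (10739 to 10787): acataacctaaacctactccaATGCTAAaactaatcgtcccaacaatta

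Library totals ran from 38.4 to 39.5 M counts. Single members had 5481 to 484098 counts per library, so counting error was at most 1.35% of a value, and the spread between wells is the larger error. Counts of wells within a group varied beyond sampling noise (chi-square over its degrees of freedom 6.49 to 20.9). This does not show that the wells are independent, and all 6 entered as separate replicates. The first principal component (73.1% of the variance) separated the groups, with scores of -34.0, -28.1 and -35.1 for celastrol replicates 1, 2 and 3, and 23.4, 38.8 and 35.1 for control replicates 1, 2 and 3. Celastrol replicate 2 and control replicate 1 thus lay nearest to the other group, and results that turn on either are given without it. The 8 mesenchymal and osteoblast markers summed to 2900 to 2970 CPM with celastrol and 3700 to 3910 CPM in controls. Of these, VIM (2500 to 2590 CPM with celastrol, 3280 to 3560 CPM in controls), SPARC and RUNX2 were clearly read, while COL1A2, SP7 and BGLAP were at or near 0. By edgeR 3 of the 5 tested markers fell (VIM, RUNX2 and ALPL) and 1 rose, COL1A1, with 11.3, 13.2 and 14.8 CPM with celastrol and 10.1, 7.56 and 7.19 CPM in controls. The part of these markers in the ND results was not tested. Markers of epithelial, leukocyte and endothelial cells (5 of 7 in the table) summed to 6.79 to 7.17 CPM with celastrol and 5.92 to 6.79 CPM in controls, nearly all from EPCAM.

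Of the 7 ND mRNAs, 6 took a smaller share of the RNA in celastrol wells. The mean of ND2 fell by 44.2%, that of ND3 fell by 36.2%, and that of ND4 fell by 31.7%. ND4L fell by 28.0%, ND5 fell by 21.1% and ND1 fell by 16.5%, while ND6 was higher in every celastrol well by a mean of 78.4% but did not pass the test. The test was edgeR's quasi-likelihood test over 15387 genes with Benjamini-Hochberg adjustment, and a gene was called at an adjusted p under 0.05. It called 6 members lower, where 24.8% of all genes were called lower, and 0 higher, where 23.6% were. With the unadjusted p (0.034) the number higher was 1, ND6, and it was 1 also by DESeq2, by limma-voom and by limma on FPKM. In 6 members every celastrol well lay below every control well, as in 28.6% of genes, and in 1 every celastrol well lay above, as in 28.4%. The median log2 fold change was -0.47 over the 7 members and -0.00024 over all genes.

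**Figure D1:**
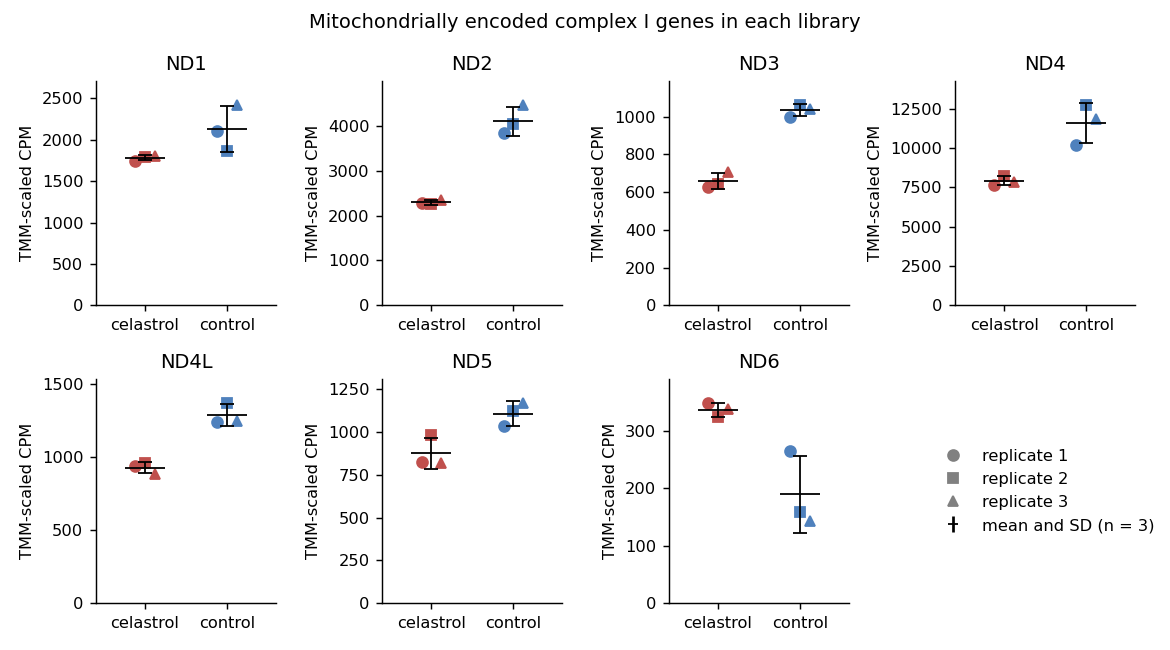
TMM-scaled CPM (vertical axes, from 0) of the 7 ND genes in the 3 celastrol and 3 control wells. Each symbol is a library, and the black marks are mean and SD. ND1 to ND5 sit lower with celastrol without overlap, and ND6 sits higher, with control replicate 1 at 266 CPM nearest to the celastrol wells.

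ND2, ND4 and ND5 encode the 3 subunits that resemble sodium/proton antiporters and line the membrane arm. ND2 had 2274, 2255 and 2343 CPM in celastrol replicates 1, 2 and 3, against 3830, 4030 and 4463 CPM in control replicates 1, 2 and 3. The groups were far apart, and the celastrol wells lay within a narrow band. ND2 averaged 2291 ± 46.0 CPM with celastrol and 4107 ± 323 CPM in controls (SD, n = 3 each; log2 fold change -0.84 ± 0.055 SE, edgeR adjusted p = 3.44e-09). ND4, the most abundant member, had 7674, 8238 and 7850 CPM with celastrol and 10200, 12750 and 11860 CPM in controls. By count it held rank 3 among all genes in each celastrol well and rank 3, 2 and 2 in control replicates 1, 2 and 3. Its log2 fold change was -0.55 ± 0.065 (edgeR adjusted p = 6.24e-06), and control replicate 1 was the lowest control. ND5 had 824, 983 and 819 CPM with celastrol and 1033, 1123 and 1172 CPM in controls. Celastrol replicate 2 came close to control replicate 1, and the groups did not overlap. The log2 fold change of ND5 was -0.34 ± 0.069 (edgeR adjusted p = 0.000703).

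ND1, ND3 and ND4L belong to the part of the membrane arm next to the matrix arm. ND1 forms much of the entry path for ubiquinone, and a loop of ND3 lies beside it. ND1 had 1749, 1789 and 1810 CPM with celastrol and 2111, 1870 and 2420 CPM in controls, so that control replicate 2 stood only just above the celastrol wells. It had the smallest fall of the 6 that were called (log2 fold change -0.26 ± 0.071, edgeR adjusted p = 0.00731). Its value was -0.16 without control replicate 3, and its call was lost by limma on log2(FPKM + 1) (-0.21, adjusted p = 0.0511), within a range of 8.37e-06 to 0.0511 over 17 alternatives. ND3 had 629, 644 and 707 CPM with celastrol and 999, 1062 and 1041 CPM in controls. These groups lay well apart (log2 fold change -0.65 ± 0.056, edgeR adjusted p = 6.6e-08). ND4L had 937, 956 and 882 CPM with celastrol and 1236, 1370 and 1246 CPM in controls, again without overlap (-0.47 ± 0.055, edgeR adjusted p = 2.06e-06).

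ND6, the member encoded on the opposite strand, lies beside ND3 and ND4L in the membrane arm. It had 350, 325 and 338 CPM in celastrol replicates 1, 2 and 3, against 266, 160 and 142 CPM in control replicates 1, 2 and 3. The celastrol wells were alike, and the spread lay in the controls, of which replicate 1 was the highest. Mean levels were 338 ± 12.3 CPM with celastrol and 189 ± 66.9 CPM in controls (log2 fold change 0.83 ± 0.27, edgeR adjusted p = 0.0663). Without control replicate 1, the control nearest to the celastrol wells, the log2 fold change was 1.16 (edgeR adjusted p = 8.64e-13). With any other single library left out, ND6 did not pass (edgeR adjusted p from 0.111 to 0.172). Over 17 alternatives its log2 fold change ran from 0.67 to 1.19, with adjusted p from 4.58e-13 to 0.172. The sources used here do not say whether counting used the strand, so reads from RNA antisense to ND6 cannot be told apart from ND6 mRNA. The part of poly(A) selection in the ND6 value was not tested.

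Levels of the members were compared per length, in the deposited FPKM. The length used was the annotated one for each ND gene (297 bases for ND4L to 1812 for ND5). With celastrol, the order of mean FPKM was ND4 (5829 ± 215), ND4L (3158 ± 146), ND2 (2229 ± 34.6), ND3 (1934 ± 111), ND1 (1891 ± 25.2), ND6 (652 ± 24.5) and ND5 (490 ± 53.1). In controls it was ND4 (8294 ± 914), ND4L (4260 ± 260), ND2 (3883 ± 277), ND3 (2945 ± 88.8), ND1 (2198 ± 270), ND5 (603 ± 34.9) and ND6 (356 ± 127). Neighbours overlapped between libraries only for ND3 and ND1 with celastrol and for ND4L and ND2 in controls. ND6 thus stood above ND5 per length in all 3 celastrol wells and below it in all 3 control wells. ND3 and ND4L are about as short as the sequenced inserts of 300 bp, which limits how exactly their length scales a count. ND4 had 1.76 to 2.05 times the FPKM of ND4L in single libraries, though they share a single mRNA. The order is thus one of FPKM and not of mRNA molecules. The FPKM of ND6 may not be on the scale of the others. Its mRNA is known to carry no poly(A) tail, and whether counting used the strand is not given.

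**Figure D2:**
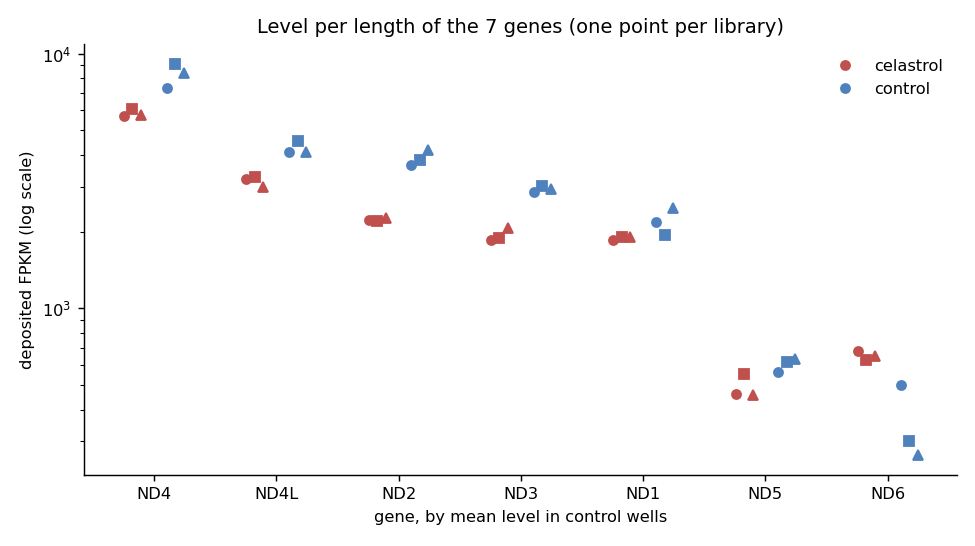
Deposited FPKM (log scale) of the 7 ND genes, 1 point per library, celastrol to the left of control within each gene. ND4 is highest in both groups (5829 and 8294 on average), and ND5 and ND6 change places.

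Together the 7 genes took 1.47%, 1.54% and 1.49% of all counts in celastrol replicates 1, 2 and 3, against 1.95%, 2.21% and 2.18% in control replicates 1, 2 and 3. The 95% Wilson intervals of these shares reached at most 0.0045 percentage points to either side and cover counting error only. The groups did not overlap (1.5% ± 0.038 with celastrol and 2.11% ± 0.144 in controls; two-sided exact permutation p = 0.1, the smallest that 3 wells against 3 allow, and 0.133 adjusted over 4 such comparisons). In RNA from whole wells, less mitochondrial RNA per cell and more nuclear RNA per cell cannot be told apart.

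As a group, the ND genes also held a smaller share of mitochondrial mRNA with celastrol. Of the counts of all 13 mitochondrially encoded mRNAs, they held 32.9%, 33.0% and 32.8% with celastrol and 35.5%, 38.0% and 38.4% in controls, again without overlap (32.9% ± 0.076 and 37.3% ± 1.59; exact permutation p = 0.1, adjusted 0.133). A second edgeR fit took the summed counts of these 13 mRNAs as the library size. In it 3 members were called lower, as were 9.8% of genes, and 1 was called higher, as were 51.5%. ND2 fell relative to the pool (-0.49 ± 0.061, adjusted p = 3.84e-06), as did ND3 (-0.29 ± 0.062, adjusted p = 0.000573) and ND4 (-0.19 ± 0.061, adjusted p = 0.011). ND4L (-0.12 ± 0.061, adjusted p = 0.1; -0.22, adjusted p = 0.00364 against the pool of the 6 mRNAs of complexes III, IV and V, range 0.00364 to 0.343), ND1 (0.093 ± 0.078, adjusted p = 0.318) and ND5 (0.011 ± 0.068, adjusted p = 0.901) did not pass against the pool of 13. ND6 rose relative to the pool (1.18 ± 0.29, adjusted p = 0.0207), and it gave nearly the same value with ND6 taken out of the pool (adjusted p = 0.0201). ND6 no longer passed when celastrol replicate 1 (1.14, adjusted p = 0.0653) or control replicate 2 (1.05, adjusted p = 0.0762) was left out, in a range of 1.76e-14 to 0.0762 over 9 alternatives. ND4 no longer passed when celastrol replicate 1 was left out (adjusted p = 0.0532, range 0.000289 to 0.0532). A fall relative to the pool was not particular to ND genes. In the same edgeR fit CYTB (-0.55, adjusted p = 2.08e-06) and ATP6 (-0.25, adjusted p = 0.000538) fell too. COX1 (0.35, adjusted p = 1.82e-05) and COX2 (0.24, adjusted p = 0.00217) rose. COX3 (0.11, adjusted p = 0.118) and ATP8 (-0.077, adjusted p = 0.669) did not pass.

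Neighbouring genes differed in how tightly their counts held together. ND4 had 8.19, 8.62 and 8.90 times the counts of ND4L with celastrol and 8.25, 9.31 and 9.52 times in controls, and these ranges overlapped (exact permutation p = 0.3, adjusted 0.3). On the log2 scale this ratio differed by -0.073 between groups. ND6 had 0.424, 0.331 and 0.413 times the counts of its neighbour ND5 with celastrol, against 0.257, 0.142 and 0.121 times in controls. The groups did not overlap, and the log2 ratio was 1.24 higher with celastrol (exact permutation p = 0.1, adjusted 0.133).

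**Figure D3:**
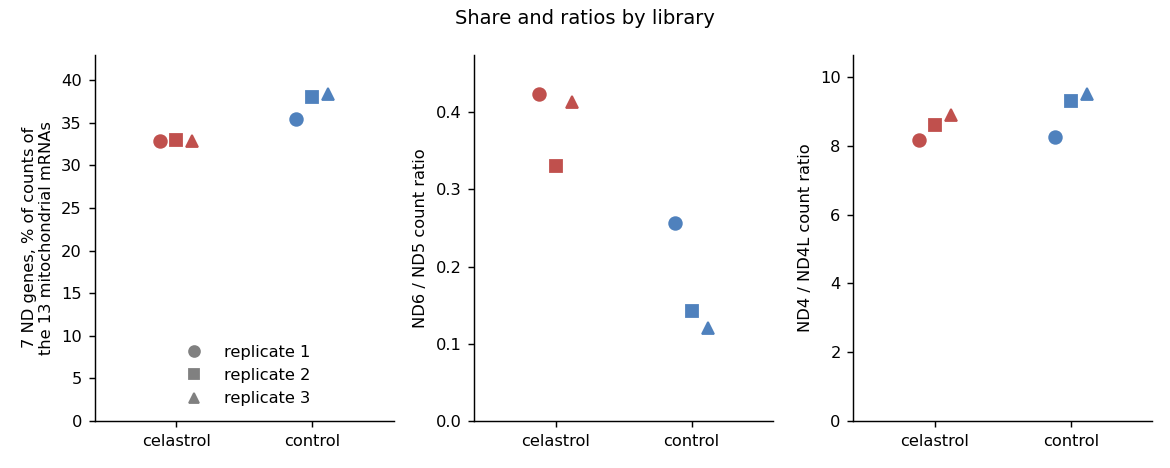
Share of the 7 ND genes in the counts of the 13 mitochondrial mRNAs (percent), and the ND6 to ND5 and ND4 to ND4L count ratios, each axis from 0 and each symbol a library. Celastrol wells sit between 32.8% and 33.0% in the first panel, and only the ND4 to ND4L ratio overlaps between groups.

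The other 6 mitochondrial mRNAs also ranged widely. CYTB, of complex III, fell by 46.5%, ATP6, of ATP synthase, fell by 34.2%, and COX3, of complex IV, fell by 15.6%. COX1 had 11280, 11880 and 11260 CPM with celastrol and 10940, 11910 and 11600 CPM in controls. By edgeR 3 of the 6 were called lower (5 without control replicate 3 and 5 with a replicate block), where 24.8% of all genes were. It called 0 higher, where 23.6% of all genes were. The number higher was 0 also at an unadjusted p under 0.05, with DESeq2, with limma-voom and with limma on FPKM. The added calls were ATP8 (-0.43, adjusted p = 0.103; 0.00135 with the block, range 0.000302 to 0.337) and COX2 (-0.11, adjusted p = 0.0585; 0.0262 with the block, range 0.0145 to 0.223). COX2 was called also by limma-voom (adjusted p = 0.032) and with the filter of 10 CPM (adjusted p = 0.0274). Along mitochondrial DNA the fall did not change steadily. ND1 (-0.26) and ND2 (-0.84) are neighbours at one end, and COX1 (-0.0015) is the next mRNA after them. At the other end ND5 (-0.34) and CYTB (-0.90) flank ND6. A trend along the DNA was not tested.

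**Figure D4:**
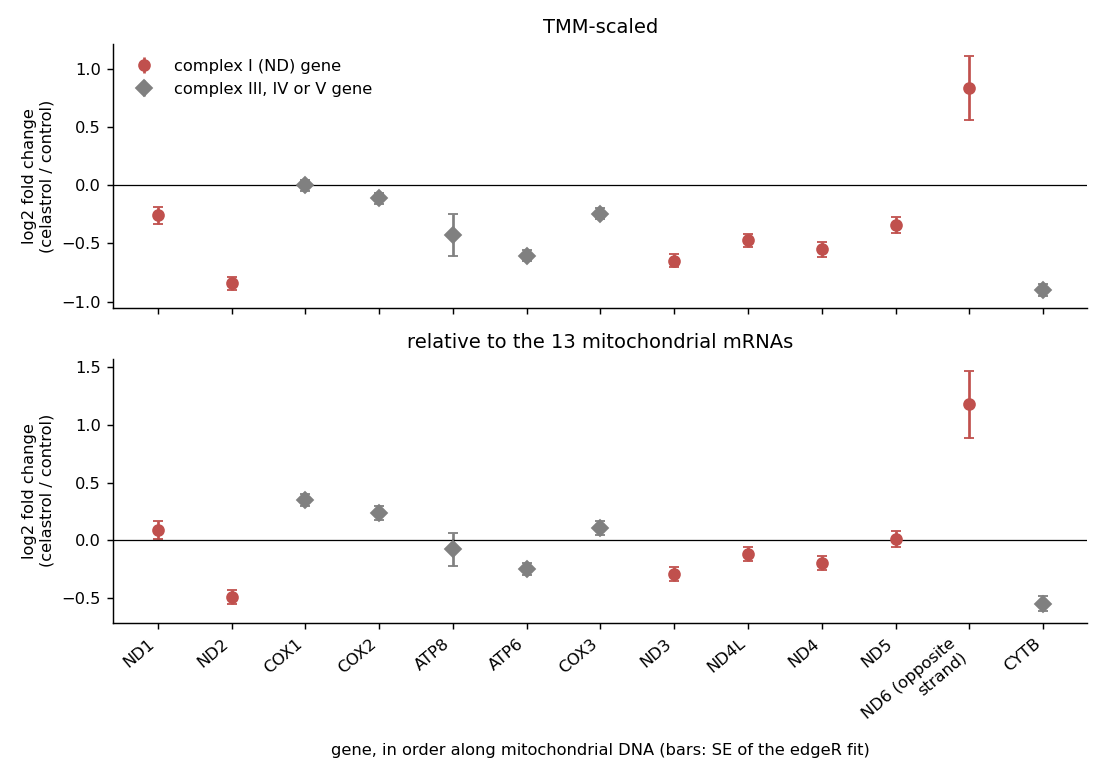
Log2 fold change (celastrol over control, bars are SE of the edgeR fit) of the 13 mitochondrial mRNAs in their order on mitochondrial DNA, scaled by TMM (top) and relative to their own pool (bottom). ND6 is the only gene above 0.5 in either panel, and ND2 (-0.84 and -0.49) is the lowest ND gene in both.

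The nuclear lists below are read against the 23.6% of all tested genes that edgeR called higher and the 24.8% that it called lower. Of the 7 nuclear core subunits, which carry the flavin and iron-sulfur clusters of the matrix arm, 1 was lower and 0 higher by edgeR (median -0.011; 0 higher with the unadjusted p under 0.05, DESeq2, limma-voom or limma on FPKM). The one that fell was NDUFV1, the flavin-binding NADH site, with 280, 271 and 283 CPM with celastrol and 336, 295 and 303 CPM in controls (-0.16 ± 0.061, adjusted p = 0.0334). It was called by DESeq2 and limma-voom but not by limma on FPKM, and 0 of these subunits were called lower when any 1 celastrol replicate was left out. Of the 30 accessory subunits, which surround the core, 9 rose and 0 fell by edgeR (median 0.14; 0 lower with the unadjusted p under 0.05 and with each other tool). The share that rose is near that of all genes, and with library size alone 15 rose. NDUFB2 rose (0.42 ± 0.096, adjusted p = 0.00162), and the membrane-arm subunit NDUFC2 had 9.98, 7.52 and 8.62 CPM with celastrol against 4.13, 3.08 and 3.07 CPM in controls (1.35 ± 0.19, adjusted p = 1.14e-05). Exons of NDUFC2 share 16.3% of their bases with the readthrough NDUFC2-KCTD14, and those of NDUFB2 27.9% with BRAF on the opposite strand, so both counts are uncertain. Of 19 assembly factors, 8 rose and 0 fell by edgeR (median 0.10; 2 lower at an unadjusted p under 0.05, 0 with each other tool), and 5 rose without celastrol replicate 3 or control replicate 2. Among them were TMEM70 (0.79 ± 0.16, adjusted p = 0.0006), which also serves ATP synthase, and NDUFAF6 (0.77 ± 0.12, adjusted p = 4.46e-05), which is needed for the ND1 module. Exons of TMEM70 share 11.5% of their bases with the pseudogene RPS20P21.

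The genes that transcribe mitochondrial DNA went both ways. POLRMT, the mitochondrial RNA polymerase, had 79.3, 77.8 and 76.0 CPM with celastrol and 106, 99.3 and 103 CPM in controls, and fell (-0.40 ± 0.066, adjusted p = 6.7e-05). TFAM, which binds the promoters and packages mitochondrial DNA, had 83.4, 79.1 and 75.2 CPM with celastrol and 50.9, 44.3 and 47.6 CPM in controls, and rose (0.74 ± 0.078, adjusted p = 6.26e-07). The promoter-melting factor TFB2M (0.038, adjusted p = 0.809) and the elongation factor TEFM (0.050, adjusted p = 0.824) did not pass, and 16.8% of the exon bases of TEFM are shared with AC130324.3 on the opposite strand. Of the 7 genes in this list, 1 was lower and 2 higher. The other riser, MTERF1 (0.66 ± 0.16, adjusted p = 0.00274), a DNA-binding factor of the rRNA region, was picked after its value was seen, as were the genes named so below.

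Of 15 tested genes that cut, tail or stabilise mitochondrial RNA, 7 rose and 2 fell (median 0.22). LRPPRC, which with SLIRP holds mitochondrial mRNAs stable, had 361, 357 and 362 CPM with celastrol and 297, 293 and 278 CPM in controls (0.32 ± 0.055, adjusted p = 0.000131). SLIRP rose too (0.22 ± 0.072, adjusted p = 0.0156), with 10.5% of its exon bases shared with C14orf178. The poly(A) polymerase MTPAP (0.00043, adjusted p = 0.998) and GRSF1, an RNA-binding protein of mitochondrial RNA granules known to bind light-strand RNA such as ND6 (-0.10, adjusted p = 0.252), did not pass. Exons of MTPAP share 13.4% of their bases with AL353796.2 and 19.4% with GOLGA2P6. The 2 that fell, picked after their values were seen, were PRORP, the nuclease that cuts the 5′ ends of tRNAs (-0.32 ± 0.092, adjusted p = 0.00878), and TBRG4 (-0.28 ± 0.062, adjusted p = 0.00108). Without celastrol replicate 1 or control replicate 2, 1 fell. Of the 4 genes for mitochondrial RNA decay, 0 were called in either direction by edgeR, DESeq2, limma-voom or limma on FPKM, with 1 in each direction at an unadjusted p under 0.05. Without control replicate 1, 2 were lower, and without celastrol replicate 3, 1 was higher. Among these, the exonuclease PNPT1 stood at 0.19 (adjusted p = 0.0731) and the helicase SUPV3L1 at 0.070 (adjusted p = 0.552).

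Of 10 genes that copy and maintain mitochondrial DNA, 5 rose and 3 fell (median 0.20). The topoisomerase TOP3A rose (0.55 ± 0.073, adjusted p = 7.65e-06). The ligase LIG3 (-0.56 ± 0.12, adjusted p = 0.000825) fell, and its exons share 29.1% of their bases with RFFL on the opposite strand. The other 2 that fell, picked after their values were seen, were the polymerase subunits POLG (-0.47 ± 0.071) and POLG2 (-0.36 ± 0.11). Of 10 translation factors, 3 rose, a share near that of all genes, and 0 fell by edgeR (median -0.0099; 0 lower with the unadjusted p under 0.05 and with each other tool), and 1 rose without celastrol replicate 3. They were the release factor MTRF1L (0.49 ± 0.13, adjusted p = 0.00409), the ribosome recycling factor MRRF (0.30 ± 0.084, adjusted p = 0.00664) and, picked after its value was seen, TACO1 (0.25 ± 0.099, adjusted p = 0.0473). Exons of MTRF1L share 34.8% of their bases with AL080276.2 on the opposite strand.

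Of 12 genes for membrane insertion, proteases and chaperones of mitochondria, 6 rose and 3 fell (median 0.18). The chaperonin partner HSPE1 (0.51 ± 0.11, adjusted p = 0.0013) and the matrix protease LONP1 (0.51 ± 0.088, adjusted p = 0.000187) rose, and 14.2% of the exon bases of HSPE1 are shared with HSPD1 on the opposite strand. The 3 that fell, picked after their values were seen, were OXA1L, which inserts mitochondrially made proteins into the inner membrane (-0.24 ± 0.056), AFG3L2 (-0.22 ± 0.074) and CLPX (-0.33 ± 0.089). Of 7 nuclear regulators of mitochondrial genes, 2 rose, again near the share of all genes, and 0 fell by edgeR (median 0.12; 1 lower with the unadjusted p under 0.05 and 0 with each other tool). With any 1 of celastrol replicates 1 and 3 and control replicates 2 and 3 left out, 1 rose. The 2 were the coactivator PPARGC1A, at 6.22, 6.38 and 6.47 CPM with celastrol and 3.77, 4.27 and 3.87 CPM in controls (0.68 ± 0.17, adjusted p = 0.00345), and the receptor ESRRA (0.18 ± 0.068, adjusted p = 0.0334).

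**Figure D5:**
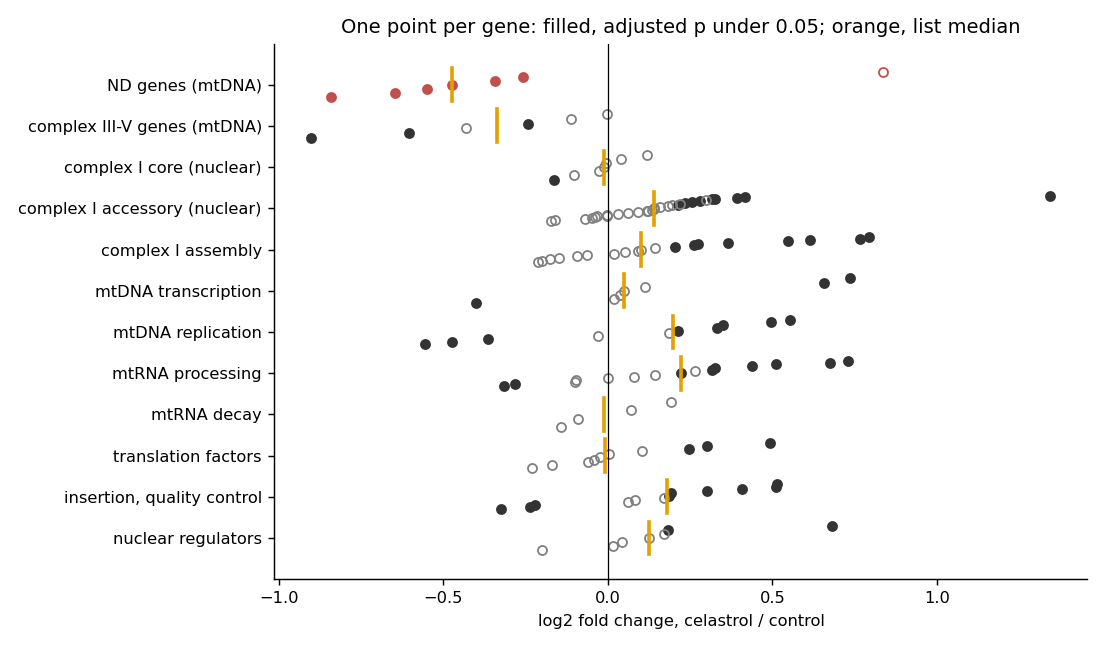
Log2 fold change (celastrol over control) of each tested gene in the ND group and 11 related lists, filled where the edgeR adjusted p was under 0.05, with list medians in orange. The ND median (-0.47) and that of the other mitochondrial mRNAs (-0.34) lie left of every nuclear list.

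For the 8691 other genes whose log2 CPM reached 4, likeness was measured as the root mean square difference of log2(CPM + 0.5), centred per gene, over the 6 libraries. Nearest to the summed ND level were CPNE3 (0.0195), UBE2L6 (0.0246), C1orf198 (0.026), CMC2 (0.0271) and PDLIM1 (0.0281). CMC2, a small mitochondrial protein linked to complex IV, had 27.9, 28.6 and 27.9 CPM with celastrol and 37.5, 40.8 and 42.0 CPM in controls. Nearest to ND6 were CPSF6 (0.0693), CTBP1-DT (0.0903) and NCAPH2 (0.10). CPSF6, a subunit of the complex that cuts nuclear mRNAs before polyadenylation, had 98.9, 92.1 and 103 CPM with celastrol and 74.7, 47.8 and 45.5 CPM in controls. Control replicate 1 was the highest control for CPSF6, as it was for ND6. The genes named here were picked for likeness over these same 6 libraries, so shared patterns follow from the choice.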

How the data were processed

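Poly(A) RNA-seq of 6 libraries, 3 celastrol and 3 control, was analysed. The read counts per gene are the deposited ones, not normalized. The FPKM values were made by the authors and deposited beside them, and in every ND gene they equal the counts scaled by the library total and the annotated gene length. The build hg38 and, as tools, HISAT2 2.2.1, cutadapt 1.9, edgeR, DESeq2 and StringTie 2.1.6 are named per the submitters' processing notes. The role of each, the annotation, the strand setting and the treatment of reads shared with nuclear copies of mitochondrial DNA are not given in the sources used here.

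Groups came from the sample titles. Genes were filtered with filterByExpr in edgeR 4.0.16 (15387 of 22481 kept), scaled by TMM and tested with the robust quasi-likelihood test (R 4.3.3), with Benjamini-Hochberg adjustment over all tested genes. SE is the absolute log2 fold change over the square root of F, and CPM are TMM-scaled. A second fit used the summed counts of the 13 mitochondrial mRNAs as library size. The first fit was tested on simulated counts of all genes, and the second on simulated counts for its ND6 value. With the same dispersion for all genes, the first fit recovered 2% of 1.25-fold changes and 50% of 1.5-fold changes. It recovered 100% of 2-fold and 4-fold changes, and 7 of its 133 calls were false. A gene that did not pass may thus still have changed by a small amount. Shares and ratios were compared by exact permutation (scipy 1.17.1). The members, lists and tests were chosen with earlier results of these data known. The genes named are the 13 mitochondrial mRNAs, 10 fixed genes of mitochondrial RNA expression, up to 2 called genes of largest change in 7 nuclear lists (log2 CPM of at least 2), and those nearest to the members in pattern. Others are markers, or are said in the text to be picked after their values were seen. Lists are described by counts and medians only. Alternatives were library size alone, RLE factors, scaling without the 13 mRNAs, DESeq2 1.42.0, limma-voom and limma 3.58.1 on log2 FPKM (pseudocounts 1 and 0.1), other filters, other pools, a replicate block and left-out libraries. Mitochondrial rRNA and tRNA genes were not analysed here.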

Additional observations from a re-analysis of the deposited data

How the results depend on the processing

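Of the 7 members, ND2, ND3, ND4, ND4L and ND5 kept their direction and their call under all 17 alternatives, and ND1 under 16. Members called lower numbered 6 by edgeR with all libraries and 5 to 6 elsewhere. Members called higher numbered 0 by edgeR with all libraries, and 1 (ND6) with at least 10 CPM in 3 libraries, by DESeq2, by limma-voom, by limma on FPKM with either pseudocount, and without control replicate 1, alone or with celastrol replicate 2. Leaving out 1 library gave 0 to 1. Relative to the pool, members called higher also ran from 0 to 1 with 1 library left out. There ND1 (0.093) turned to -0.0055 against the pool of complexes III, IV and V and to -0.0074 without control replicate 2, the lowest with 1 library left out (highest 0.18). ND5 (0.011) turned to -0.089 against that pool, to -0.061 without celastrol replicate 2 and to -0.014 without control replicate 1 (highest 0.055). In the first fit, which does not use the pool, COX1 (-0.0015) turned to 0.040 with library size alone and on FPKM with either pseudocount. Leaving out celastrol replicate 1 or 3, or control replicate 2 or 3, gave it 0.0073, 0.0088, 0.025 and 0.0049, and leaving out both celastrol replicate 2 and control replicate 1 gave its lowest value, -0.062. ND1 and ND5 relative to the pool, and COX1 without it, were not called under any alternative. The cause was not tested.

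Deviations of same-numbered wells correlated only weakly, at 0.065, 0.091 and 0.052. Wells of unlike number correlated at -0.084 to 0.0079, so each well correlated best with its own number. That is a hint of pairing from the data and not the design, and the main fits did not use it. With the replicate block, 6 members were lower and 0 higher, and relative to the pool 4 were lower, ND4L being added (adjusted p = 0.0218), as it was against the pool of complexes III, IV and V (adjusted p = 0.00364). The block also added ATP8 and COX2 to the calls. Library size alone moved the median of all genes by 0.041 and changed no member's call. It moved the accessory subunits that rose to 15, against 9, the nuclear core subunits to 0 lower and 1 higher, the genes of RNA decay to 1 higher, and the insertion and quality genes that fell to 2, against 3. Leaving out 1 library gave 6 to 11 accessory subunits higher. Without control replicate 1, 1 accessory subunit, 1 translation factor and 1 regulator were lower. Without celastrol replicate 2, 1 translation factor was lower, and without any 1 control replicate 1 assembly factor was lower. Depth does not limit the members, but 3 wells against 3 cannot give an exact p under 0.1.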

Other observations

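The end of the reading frame divides the 13 mitochondrial mRNAs in a way the comparisons above do not use, and this split was made after the values were seen. In ND1, ND2, ND3, ND4, COX3 and CYTB the DNA encodes only part of the stop codon. All of these were called lower by edgeR, as were 24.8% of all genes. The log2 fold changes were -0.90 (CYTB), -0.84 (ND2), -0.65 (ND3), -0.55 (ND4), -0.26 (ND1) and -0.24 (COX3). The other 7 end in a whole codon, which is TAA or TAG except for AGG in ND6 and AGA in COX1. Of these 7, 3 were called lower (ATP6 at -0.60, ND4L at -0.47 and ND5 at -0.34). ATP8 (-0.43), COX2 (-0.11), COX1 (-0.0015) and ND6 (0.83) were not called. With the replicate block ATP8 (adjusted p = 0.00135) and COX2 (adjusted p = 0.0262) were called as well, which makes 5 of 7. ND4L shares its mRNA with ND4, and ATP8 with ATP6. No test was made of this split.

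Within the pool of the 13 mRNAs, COX1 took a share of 25.7%, 25.8% and 25.0% in the celastrol wells, against 19.7%, 20.2% and 19.9% in the control wells (replicates 1, 2 and 3 of each). ND4 took 17.5%, 17.9% and 17.5% with celastrol and 18.4%, 21.7% and 20.4% in controls. The most abundant of the 13 by count was thus COX1 in all 3 celastrol wells, and it was ND4 in control replicates 2 and 3.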
